A study of Triticum aestivum with 8 samples.

Results

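Of the 37826 probes on each array, 139, or 0.367%, gave a signal in wheat crown at 24 °C that was not found on either array of crown kept at 4 °C. A probe was taken when the scanner software flagged it well above background on both crown arrays at 24 °C and on neither at 4 °C, and when its mean level at 24 °C lay at least 4 log2 units above -8.43, the mean of the lowest flagged levels on the crown arrays at 4 °C. A level is the log2 processed signal minus the array's 75th percentile. Before the margin of 4 was applied 234 probes met the flags, and 95 of them lay under it. The members were thus chosen by their crown signals and flags, and their crown levels are given as a description with no test. The leaf arrays played no part in the choice and carry the only test.

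The 8 one-colour arrays came from a synthetic hexaploid wheat line, a bread wheat rebuilt from its ancestral species, whose name and parents are not given in the sources used here. All plants were first grown for 3 weeks at 24 °C. Crown after a further 6 weeks at 4 °C, crown at 24 °C, leaf after a further 12 weeks at 4 °C and leaf at 24 °C had 2 arrays each, so n = 2 in every group. No genotype, transgene or other treatment distinguishes the groups. Cold plants were older than their controls, and no slide or scan day was shared between groups. In each tissue the 2 temperatures were also read with different versions of the scanner software. Leaf at 24 °C was read on 1 scanner and the other groups on another. Temperature, plant age, slide, scan day and software version therefore cannot be told apart, and in leaf neither can the scanner. Crown is defined in the tissue entry as shoot material with the shoot apical meristem, whereas the free text of the crown controls speaks of leaves. Across probes the crown controls correlated with crown at 4 °C at r = 0.915 to 0.919 and with leaf at 24 °C at r = 0.774 to 0.776. The tissue could not be checked against marker genes, since no probe name matched the lists for leaf, meristem or root cells.

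The crown is the compressed stem base of a cereal, from which the plant regrows after winter. Weeks of cold bring about cold acclimation, in which growth slows and freezing tolerance builds up, and, in winter types, vernalization, the acquired readiness to flower. Many transcripts of growth and photosynthesis are known to decline in the cold while those of protective proteins accumulate. A probe on such an array reads the labelled RNA of all transcripts that hybridise to it, which in hexaploid wheat can include the copies of a gene from the different ancestral genomes. In whole tissue, fewer cells of a type and less RNA per cell cannot be told apart.

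The members are known mostly by contig and clone names, and 1, ncbi_gi_23630508_1472, by a GI number. No gene is given for these names in the files, and none of them matched the reference gene table. None of the members matched the 9 lists of gene names that were searched. Only 2 of the lists matched any probe on the array, with 4 probes for cold and dehydration and 2 for DREB and CBF factors. Nothing is read from the lack of matches. No gene name or role is therefore given, and each probe is described by its values. Each of the 139 stands for a different contig, clone or other sequence name. None carried a flag for a non-uniform, outlying or saturated spot on any array. Among all probes 0.394% carried the first of these flags and 0% the others, so nothing is read from this. They were spread over the array, with 23.7% at the bottom left, 22.3% at the bottom right, 30.2% at the top left and 23.7% at the top right, against 25.3%, 24.8%, 25.2% and 24.7% of all probes.

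At 24 °C the members covered a wide range of crown levels. Their mean level at 4 °C lay between -10.73 and -8.23 with a median of -9.94, none of it well above background, against a lowest of -4.39, a median of -2.81 and a highest of 2.21 at 24 °C. The median of all 27885 probes well above background on both crown arrays at 24 °C was -1.26, and 14 members exceeded 0, the 75th percentile of the array. The members are 0.498% of those 27885 probes, and all probes tested in crown were called lower in 15.9% of cases, figures from which nothing is read here because the rule used this contrast. Counted from the detection limit or from its own signal where that was higher, each member was at least 16.4-fold lower in cold crown, with a median bound of 47.5-fold and a highest of 1388-fold.

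The highest member was wheat0130Contig3974, with -8.19 and -8.26 on the arrays of crown at 4 °C, against 2.19 and 2.23 at 24 °C. It was not well above background on any leaf array. The next was wheat0130Contig8112, with -9.09 and -8.93 at 4 °C, against 1.81 and 1.79 at 24 °C. The third, MUGEST2003_23lib_Contig23241_376, had -10.48 and -10.47 at 4 °C, against 1.62 and 1.53 at 24 °C. All 3 differed by less than 0.1 between the arrays of a crown group at 24 °C, and their bounds on the fold were 1388, 1200 and 1026. In leaf at 24 °C none of them was well above background on either array.

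At the margin the values run on without a gap. Just inside lay MUGEST2003_23lib_Contig16770_683 at a margin of 4.05 and MUGEST2003_23lib_Contig4741_110 at 4.04. Just outside lay rwhsd12e06_418 and MUGEST2003_23lib_Contig8731_p_1225, at 3.97 and 3.96. The first of these had -8.15 and -9.51 in crown at 4 °C, against -5.13 and -3.79 at 24 °C, so that its arrays at 24 °C differed by more than the step that kept it out.

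The crown arrays at 24 °C separated the members into 2 sets that the rule did not ask for. The difference of replicate 2 minus replicate 1 was within 0.25 of zero for 63 members and between 0.75 and 1.25 for 58, with 10 from 0.25 to 0.75. In all, 65 of 139 members, 46.8%, were higher on replicate 2 by at least 0.5. Of all probes well above background on both of these arrays 3.22% were, and their median difference was -0.01. The limit of 0.5 was chosen after these values were seen. Among the 65 the difference had a median of 1.00 and an SD over probes of 0.17, which is a 2.00-fold higher signal on one array than on the other. They are probes of 2 arrays on 1 slide and not independent observations.

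In crown at 24 °C the 65 had a median level of -2.36 and the other 74 members a lower one of -3.05. Of the 14 members above 0, 5 were among the 65. For MUGEST2003_23lib_Contig10591_825, one of the 65, the crown arrays read -8.73 and -9.23 at 4 °C, against 0.19 and 1.15 at 24 °C. The widest differences ran the other way, in a pair of dim members with no leaf signal. These were wheat0130Contig6853, at -3.08 and -5.67 in crown at 24 °C, and MUGEST2003_23lib_Contig2309_1045, at -3.01 and -5.18. Besides these, whcs16a01_749 was higher on replicate 1 by at least 0.5. With replicate 2 of crown at 24 °C left out of the rule 169 probes were chosen, 130 of them members, and with replicate 1 left out 187, of which 136 were members.

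In leaf the members were less widely detected than crown probes in general. At 4 °C 38 members, 27.3%, were well above background on both arrays, against 84, 60.4%, at 24 °C. Of all 27885 probes on both crown arrays at 24 °C, the shares in leaf were 92.9% at 4 °C and 89.8% at 24 °C. By detection, 53 members were on both leaf arrays at 24 °C and on neither at 4 °C, 24 on all 4 leaf arrays, 13 on both at 4 °C and neither at 24 °C, 35 on none, and 14 on a single array of some leaf group. The first pattern held for 38.1% of members and for 0.832% of all probes on both crown arrays at 24 °C. For the other patterns, in that order, the shares were 17.3% against 88.4%, 9.35% against 3.28%, 25.2% against 4.09% and 10.1% against 3.42%. The 35 on no leaf array ran from -4.39 to 2.21 in crown at 24 °C, with a median of -3.61.

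The leaf comparison asked whether these crown probes also changed in leaf after 12 weeks of cold. It was fitted with limma on all 8 arrays over the 29604 probes that both arrays of leaf at 4 °C, or both of leaf at 24 °C, placed well above background, and a probe was called at a Benjamini-Hochberg adjusted p under 0.05 and a change of at least 2-fold. Of the 139 members 98 could be tested. Of these, 77 fell and 9 rose in cold leaf, against 20.7% of all probes tested that fell and 12.9% that rose, and 12 were not called. Over all probes tested 6128 fell and 3829 rose, and this split moved with the scaling, to 4200 falls and 6817 rises with spike-ins and to 7806 falls and 1990 rises with the normexp correction. The members' split was 74 falls and 12 rises with spike-ins and 82 falls and 4 rises with normexp. The fitted median change of the 98 was -5.32 on the log2 scale, against -0.09 over all probes tested. Most of these changes were taken against signals not well above background, and the median was -1.99 with the normexp correction and -2.11 with a common floor. Of the members tested, 53 entered only through leaf at 24 °C, where they were high, and could hardly be called anything but lower, and 13 entered only through leaf at 4 °C. These counts and the median are therefore a description of the members and no support for a shared change. The other 41 members could not be tested.

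The 24 members well above background on all 4 leaf arrays did not enter through 1 leaf group alone. The lowest flagged levels were still lower in leaf at 4 °C, -7.89 and -8.19, than at 24 °C, -6.35 and -6.04. A fall could thus end at a lower level than a rise could start from. Of the 24, 16 fell, 3 rose and 5 were not called, against 20.7% falling and 10.7% rising among all probes on all 4 leaf arrays. Their median change was -1.50, against -0.12. The 16 falls had a median of 6.92-fold and ran from 2.17-fold to 202-fold. Of the 16, 10 were among the 65 that were higher on crown replicate 2.

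The largest fall among those 24 was that of whdp5e20_176, with -7.63 and -7.14 in leaf at 4 °C, against 0.16 and 0.39 at 24 °C. It was 202-fold lower in cold leaf (log2 change -7.66, standard error 0.287; limma, Benjamini-Hochberg adjusted p = 4.61e-06). Its log2 change was -6.32 with a common floor and -5.08 with the normexp correction. This probe also had the highest leaf level of any member at 24 °C. The next largest fall was that of MUGEST2003_23lib_Contig10591_825, with -7.70 and -7.73 at 4 °C, against -1.28 and -1.0 at 24 °C, a fall of 95.2-fold (adjusted p = 1.29e-05 by limma with Benjamini-Hochberg adjustment). Its log2 change of -6.57 was -4.90 with a common floor and -3.81 with normexp. Second in leaf level at 24 °C was whva3b23_569, which had -3.18 and -3.16 at 4 °C, against -0.34 and -0.06 at 24 °C, and was 7.84-fold lower (limma, Benjamini-Hochberg adjusted p = 0.000409). The same probe had -10.44 and -10.42 in crown at 4 °C, against -0.36 and 0.77 at 24 °C. Its leaf signal thus stayed well above background in the cold, unlike its crown signal.

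The 53 members on both leaf arrays at 24 °C and neither at 4 °C were called lower, as were all 232 probes on both crown arrays at 24 °C with this leaf pattern, so the call adds nothing to the pattern. Their fold can be given only as a bound, which ran from at least 5.68 to at least 112, with a median of 22.2. The highest bound belonged to whdp16f01_306, which was named for it after its values were seen. It had -9.04 and -8.21 in leaf at 4 °C, against -1.33 and -1.14 at 24 °C. In crown it had -8.89 and -10.47 at 4 °C, against -0.59 and 0.49 at 24 °C. When the rule for crown was applied to the leaf arrays, 124 probes, 0.462% of those on both leaf arrays at 24 °C, were switched off in cold leaf. Of these, 38 were members, which is 27.3% of the members and 30.6% of the leaf list. With quantile normalization 16 members met the leaf rule in place of 38.

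A few members went up in cold leaf while their crown signal was lost. The largest rise among members on all 4 leaf arrays was that of rwhkp2j09_133, with -0.07 and 0.01 in leaf at 4 °C, against -4.35 and -4.34 at 24 °C, or 19.8-fold higher (limma, Benjamini-Hochberg adjusted p = 6.2e-05). In crown it had -9.63 and -10.45 at 4 °C, against -4.64 and -3.92 at 24 °C. The second was MUGEST2003_23lib_Contig16770_683, with 1.10 and 1.16 in leaf at 4 °C, against -0.30 and -0.40 at 24 °C, or 2.79-fold higher (limma, Benjamini-Hochberg adjusted p = 0.00175). It was the dimmest but one of the members in crown at 24 °C.

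The highest leaf level of any member in the cold was that of MUGEST2003_23lib_Contig13877_801, with 2.05 and 2.16 at 4 °C, against -6.50 and -7.42 at 24 °C, where it was on neither array. It was at least 314-fold higher in cold leaf (limma, Benjamini-Hochberg adjusted p = 2.46e-06). In crown the same probe had -10.57 and -10.54 at 4 °C, against -3.46 and -3.64 at 24 °C. Another such probe, wheat0130Contig8859, was chosen after its values were seen. It had -0.83 and -0.85 in leaf at 4 °C, against -8.04 and -7.94 at 24 °C, and was at least 40.9-fold higher in cold leaf (limma, Benjamini-Hochberg adjusted p = 1.21e-07). Of the 9 members called higher, 6 were on neither leaf array at 24 °C, and for 2 of these the bound was under 2-fold. Among the members not called, MUGEST2003_23lib_Contig23241_376 had -6.72 and -6.83 at 4 °C, against -6.65 and -7.54 at 24 °C (log2 change 0.32; limma, Benjamini-Hochberg adjusted p = 0.306). It was on both leaf arrays at 4 °C, on neither at 24 °C, and the sign of its change differed between the alternatives.

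The 2 sets seen on the crown controls were set against the leaf arrays, which had no part in defining them. Of the 65 members higher on crown replicate 2, 59 could be tested in leaf, and 58 of these fell and 1 rose, that one being rwhkp2j09_133. Of the other 74 members 39 could be tested, of which 19 fell, 8 rose and 12 were not called. These counts follow in part from the filter, since 44 of the 65 and 9 of the 74 were detected in leaf at 24 °C only, and none of the 65 and 13 of the 74 at 4 °C only. On all 4 leaf arrays were 11 of the 65, of which 10 fell and 1 rose, and 13 of the 74, of which 6 fell, 2 rose and 5 were not called. Of all probes so detected 20.7% fell. On both leaf arrays at 24 °C were 59 of the 65 and 25 of the 74, and 34 of the 65 and 4 of the 74 met the off rule in leaf. The difference between the sets was not tested.

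In the leaf controls the 59 detected members of the first set also differed between arrays, replicate 2 being higher for 55 of them. The median of replicate 2 minus replicate 1 was 0.28 for these 59, 0.08 for the 25 of the second set, and 0.00 over all probes on both leaf arrays at 24 °C. At that temperature the first set was higher in crown than in leaf for 54 of 59, by a median of 1.11, with a range from -2.05 to 2.07. In the second set 18 of 25 were higher in crown, by a median of 0.95, with a range from -4.03 to 4.38. These tissue differences rest on the crown levels that chose the members and are not tested. What sets the controls apart from each other in these probes was not tested.

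Probes from 1 clone series, whdp, formed a larger share of the members than of the array. The other clone series were pooled and not counted singly, so whether this holds for another series is not known. Names that begin with whdp, or with rwhdp, made up 18 of the 139 members, or 12.9%, against 242 of all 37826 probes, or 0.640%. Of the 134 whdp probes on both crown arrays at 24 °C, 13.4% were members, against 0.498% of all probes so detected. All 18 were on both leaf arrays at 24 °C and all 18 fell in cold leaf, 13 of them being detected in leaf at 24 °C only. Of the 116 whdp probes on both crown and both leaf arrays at 24 °C, members included, 51.7% fell in cold leaf. On all 4 leaf arrays were 3 of the 18. The first set held 17 of the 18, and 11 of them met the off rule in leaf. The median crown level of the 18 at 24 °C was -1.58, with a range from -4.34 to 0.91. One of them, whdp17c02_247, picked as an example after its values were seen, had -8.77 and -10.23 in crown at 4 °C, against 0.20 and 1.25 at 24 °C. In leaf it had -7.52 and -7.34 at 4 °C, against -0.80 and -0.52 at 24 °C, and was well above background on 1 of the arrays at 4 °C.

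Of the whdp probes on both crown arrays at 24 °C that were not members, 3 of 116 were on neither crown array at 4 °C and 28 of 116 were higher on replicate 2 by at least 0.5. The remaining members came mostly from the large contig sets and other clone series. There were 37 wheat0130Contig probes, 26.6% of members against 36.9% of all probes, and 35 MUGEST2003_23lib_Contig probes, 25.2% against 20.1%. The first set held 10 of the 37 and 13 of the 35. Apart from the whdp probes, 48 of 121 members were in the first set. What the letters of the clone names stand for is not given in the sources used here.

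A second probe of the same contig or clone was on the array for 19 members. In 8 cases the names differed by p and m and in 11 by a leading r. None of the second probes was itself a member. Of the 19, 8 were well above background on neither crown array at 24 °C and 1, whr11d19, on 1 of them. Of the 10 on both of these arrays, 9 were also well above background on both at 4 °C. The tenth, rwhsd12e06_418, was on neither and is the probe just outside the margin. Its partner whsd12e06_515 is a member.

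Second probes of those 9 pairs gave a wide range of values, and the 3 named here were picked after their values were seen. The differences of the second probes in crown, 4 °C minus 24 °C, ran from -6.53 to 1.38, and 8 of the 9 were below zero. The second probe of member whdp20o22_p_367, named whdp20o22_m_173, had -7.66 and -6.88 at 4 °C, against -1.33 and -0.16 at 24 °C, or 92.2-fold lower. The second probe of whdp16f01_306, named rwhdp16f01_340, had -1.78 and -1.84 at 4 °C, against -0.36 and 0.29 at 24 °C, only 3.42-fold lower. In the opposite direction, MUGEST2003_23lib_Contig11943_m_581 had -1.30 and -1.39 at 4 °C, against -2.69 and -2.76 at 24 °C, whereas its member partner MUGEST2003_23lib_Contig11943_p_414 had -9.32 and -9.58, against -3.45 and -3.07. These values use the crown contrast of the rule and are given as a description. Which strand or transcript each probe of a pair reads is not stated.

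Technical facts bear on all of these counts. Between 84.9% and 85.6% of probes were well above background on the crown arrays at 4 °C, 75.1% and 75.3% at 24 °C, 77.3% and 79.3% in leaf at 4 °C and 73.1% and 72.1% at 24 °C. The lowest level so flagged was -8.47 and -8.38 in crown at 4 °C, -6.09 and -6.08 in crown at 24 °C, -7.89 and -8.19 in leaf at 4 °C, and -6.35 and -6.04 in leaf at 24 °C. Loss of signal could thus be followed further down in the cold groups than at 24 °C. With 1 floor common to the crown arrays, at their highest limit, 47 probes met the rule in place of 139.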

How the data were processed

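RNA of crown and leaf at 4 °C and 24 °C was labelled with Cy3 and hybridised to 8 arrays, grouped by sample title. Per the file headers, the deposited scanner files hold intensity values from Agilent Feature Extraction 10.5.1.1 (both 4 °C groups), 10.7.3.1 (crown, 24 °C) and 9.5.3.1 (leaf, 24 °C); the submitters' processing notes name 9.5. Other columns, per the file headers, are flags of 0 or 1 and the spot's class. The authors' deposited table of scaled intensity was used as an alternative; its scaling is not stated.

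Processed signals, background-subtracted by the scanner software, were taken to log2 and reduced by each array's 75th percentile over 37826 probes, without 1417 control spots. Group means were fitted with limma 3.58.1 in R 4.3.3 (4 residual and 1.76 prior degrees of freedom). An exact permutation test of 2 against 2 arrays cannot go below 0.333 and was not used. P-values measure the spread between arrays, from what the submitters call independent experiments. The fit was tested on simulated data.

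The members and lists were chosen with earlier results of these data known. The text names the 3 highest members, the 2 largest rises and falls on all leaf arrays, the 2 probes on each side of the margin, the 2 widest differences between crown controls and the 2 highest in each leaf group; others are said to be added. No contig held 2 members. Alternatives were median, quantile and spike-in scaling (7 control probes), normexp (offset 50) on the median spot signal, the authors' table, a common floor, other filters, margins and fits, and leaving out each array. The arrays lay on 5 slides and 4 scan days, and no slide or day held more than 1 group.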

Additional observations from a re-analysis of the deposited data

Results flagged for a closer look

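For 9 members, all of those called higher in cold leaf, every leaf array at 4 °C lay above every leaf array at 24 °C while every crown array at 4 °C lay below every crown array at 24 °C. That is 9.18% of the members tested in leaf. Of all probes tested in leaf 4.16%, 1231 in number, showed the same pattern. The rule put every member lower in cold crown, so these 2 shares are not alike and nothing is read from them. Of all probes tested in leaf 12.9% rose, whatever their crown change. For the 4 of the 9 given with their values in the text the leaf changes were 9.06 for MUGEST2003_23lib_Contig13877_801, 7.15 for wheat0130Contig8859, 4.31 for rwhkp2j09_133 and 1.48 for MUGEST2003_23lib_Contig16770_683 on the log2 scale. The first 2 of these rest on leaf signals at 24 °C that were not well above background. The difference between the tissues was not tested, since the crown values chose the members, and the leaf spent 12 weeks and the crown 6 weeks at 4 °C.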

How the results depend on the processing

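The number of members was 139 and ranged from 93 to 142 with median, quantile and spike-in scaling and a margin of at least 5; it was 211 with a margin of at least 3 and 47 with a common floor, and leaving out a crown array gave 156 to 187. The members that fell in cold leaf, 77, numbered 61 to 107 under every alternative except the filter on all 4 leaf arrays, with 16 falls and 4 rises. Leaving out a leaf array gave 76 to 77 falls and 9 to 12 rises. The 9 rises numbered 4 with the normexp correction and 4 with a margin of at least 5. Over all probes, falls were 12225 without a filter on dim probes and 12562 without a fold threshold, and rises 6817 with spike-in scaling, 1990 with normexp and 10473 without a fold threshold. The median change of tested members was -4.34 with quantile normalization, -4.92 with spike-ins, -1.99 with normexp, -2.11 with a common floor, -2.98 without a filter and -1.50 with the filter on all 4 leaf arrays; over all probes tested the median was 0.13, 0.08, 0.30 and -0.42 with median, quantile, spike-in and normexp processing. Members switched off in cold leaf were 16 in place of 38 with quantile normalization. The change of MUGEST2003_23lib_Contig23241_376, 0.32, was -1.05 and called with normexp, 1.00 and called with quantile normalization, 0 with a common floor, and -0.12 to 0.77 with a leaf array left out, the lowest without replicate 2 of leaf at 24 °C. That of rwhsd12e06_418 was -0.046 with normexp, against 0.33. Alternatives were followed for 10 of the named probes tested in leaf, these 2 included, and their other values kept direction and call. They were not followed for probes picked later as examples, such as whdp17c02_247. With replicate number as a block, 77 members fell, 9 rose and the median stayed at -5.32. Across probes, the deviations of same-numbered arrays correlated at r = 0.00 in leaf and -0.06 in crown. These correlations cannot show whether same-numbered samples share more than a number. With slide as a random block 77 fell and 10 rose, at an estimated correlation within slides of -0.72. No slide held more than 1 group, so this block cannot take a difference between slides out of the leaf comparison. Apart from the fewer probes that a filter, floor or margin leaves, the cause of these shifts was not tested. Signals below the detection limit set the size of most fitted changes.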

Other observations

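The difference between the crown controls was also seen outside the 139 members. Of 24358 other probes at least as high in crown at 24 °C as the dimmest member, 570, or 2.34%, were higher on replicate 2 by at least 0.5. Of the 544 of these tested in leaf, 380, or 69.9%, fell in cold leaf. Of the other probes of that brightness, without the difference, 18.8% fell. These shares follow in part from the filter, since probes detected in leaf at 24 °C only could hardly be called anything but lower. Of the 232 such probes on both crown arrays at 24 °C, members included, 108, or 46.6%, were higher on replicate 2 by at least 0.5. Members made up 44 of these 108. Among those detected in leaf at both temperatures the share was 2.45%. Most of the 570 were thus not detected in leaf at 24 °C only. The share of falls without such probes was not counted, and the contrast was not tested. The sets were defined on crown arrays at 24 °C and the calls made on leaf arrays (limma, Benjamini-Hochberg). The comparison was chosen after the values were seen, and no explanation was tested.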
